A study of Saccharomyces cerevisiae with 56 samples.

Results

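The mitochondrial ribosomal protein genes are the nuclear genes for the proteins of the ribosome that works inside the mitochondrion. They were taken by name, as genes whose symbol is MRPL, MRPS or MRP followed by a digit, RSM followed by a digit, or RML2, IMG1 or IMG2. MRP51 and MRPL40, on the left arm of chromosome 16, were left out. This gave 66 genes of 5197 named genes and 6245 features on the array: 39 of the large subunit, 26 of the small subunit, and MRP8, which is not placed in either. RSM22, a protein needed to build the small subunit, is counted in it, and the subunit values were not computed without it. RSM28 and MRP35 match the rule in the yeast annotation but had no probe of that name. A further 11 proteins of the same ribosome carry other names, among them PET123, MNP1 and the mitochondrially encoded VAR1, and were kept apart.

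The mitochondrial ribosome makes the few proteins that the mitochondrial genome still encodes, chiefly core subunits of the respiratory complexes and of ATP synthase. Its small subunit binds the messenger RNA and decodes it, and its large subunit joins the amino acids and feeds the new chain to the inner membrane. Many of its proteins have counterparts in bacterial ribosomes (unified names starting with u or b), and others are found only in mitochondria (names starting with m). In budding yeast nearly all of them are made in the cytosol from nuclear transcripts and imported, and cells that lose mitochondrial translation cannot respire but can still ferment.

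Transcripts were measured in 2 Saccharomyces cerevisiae strains and in 44 haploid offspring of their cross, in wine fermentation. 59A (MATa; ho) descends from the industrial wine strain EC1118 as a haploid. S288C (MATalpha, SUC2, gal2) is the laboratory reference strain. All strains fermented the synthetic must SM425, with 425 mg/L of assimilable nitrogen at pH 3.3, without air, and were sampled in stationary phase at 66 g/L of CO2 released, 70% of the fermentation. 2 RNA extracts of each parent, which the paper's methods give as biological replicates, were hybridised 3 times. This gave 12 arrays, and each segregant had 1 array. The segregants came from 26 asci, so many of them are spores of the same meiosis, and their genotypes were not used here.

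The 56 one-colour arrays lay on 7 slides of 8, of which 3 held both parents. Slides were read from codes in the sample titles, which do not spell out their meaning. Values are log2 intensities that the authors quantile normalized, so every level is relative to the other transcripts of the same array, and a change in the amount of RNA per cell cannot be told apart from a change in the share of it that a gene takes. Arrays of 1 parent correlated at 0.991 or more over all features, and any array of 59A with any of S288C at no more than 0.894. The mating type genes followed the labels: all 5 a-cell markers tested were higher in 59A, and 2 of 3 alpha-cell markers were lower in it, with SAG1 at -0.32 (adjusted p = 0.0206 in limma). Segregants 9c and 13b had the most missing values and held 11 of the 25 values missing over 14 members. All members were above 6.3, 1 log2 unit over the background of 5.3 that the authors state, on every array. The lowest value was 6.34 (MRPL25 in S288C), and means over the 4 extracts ran from 6.94 (MRPL25) to 11.69 (MRPS12). These ends depend on the probe as well as on the transcript and are not compared. The paper cautions that a mutation in a gene can weaken the binding of its transcript to the probe. A difference between the parents in a single gene may partly reflect this, which was not tested.

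The first question was whether the parents differed in the transcripts of this ribosome. They did, mostly in 1 direction. Extract means were compared with limma over 5969 features. A call needed both an adjusted p below 0.01 and a difference of more than 0.7 on the log2 scale, in either direction. Of the 61 members with values on all 12 parental arrays, 32 (52.5%) were called higher in 59A and none lower. Over all features 12.8% were called higher in 59A and 12.4% lower. At an unadjusted p under 0.05, 54 members were higher and 1, MRP8, was lower, beside 1883 and 1984 of the 5969 features. The median difference over the 61 members was 0.71 on the log2 scale, which is 1.63-fold, beside -0.01 over all features. On single arrays, all 6 of 59A lay above all 6 of S288C in 51 members (83.6%), beside 30.4% of all features, and below them only in MRP8, beside 32.1% of all features.

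**Figure D1:**
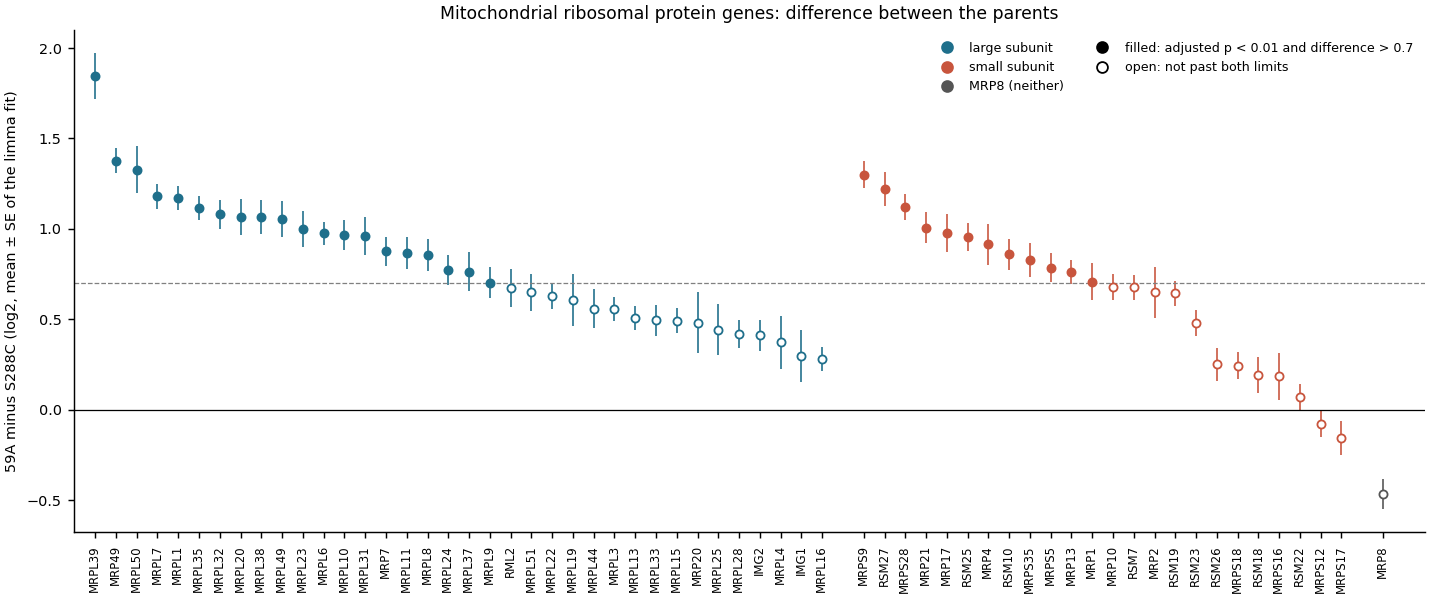
Difference between the parents (59A minus S288C, log2) for the 61 tested members, each with the standard error of the limma fit on 2 extracts a parent. All 36 large subunit genes lie above 0, from 0.28 to 1.85, as do 22 of 24 small subunit genes, and MRP8 lies lowest at -0.47.

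In the large subunit all 36 tested genes had higher means in 59A, and 20 of them were called. The median difference was 0.77 (1.70-fold), with quartiles of 0.50 and 1.06. MRPL39, the counterpart of bacterial protein L33 (bL33m), differed most. Its 2 extracts read 10.23 and 10.19 in 59A and 8.54 and 8.19 in S288C. The lowest 59A array, at 10.09, was therefore well above the highest S288C array, at 8.59. The difference of 1.85 ± 0.13 (SE, 2 extracts a parent) is 3.59-fold, with an adjusted p of 0.000198 in limma. Within the slides that held both parents it was 1.60, 1.87 and 2.19.

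MRP49 (mL61), a protein found only in mitochondrial ribosomes, read 9.57 and 9.50 in 59A and 8.18 and 8.13 in S288C. Both extracts of 59A were thus 2.60-fold above S288C on average (1.38 ± 0.07, adjusted p = 8.42e-05). MRPL50 (bL9m) read 9.62 and 9.44 against 8.36 and 8.04, a difference of 1.33 ± 0.13. Arrays of the parents did not overlap in either gene. MRPL7 (uL5m), which contacts the small subunit, differed by 1.18 ± 0.07. MRPL1 (uL1m), of the stalk beside the exit site for spent tRNA, rose by 1.17 ± 0.07, from 9.17 and 9.20 in S288C to 10.38 and 10.34. MRPL35 (mL38) differed by 1.12 ± 0.07, and its extracts were within 0.01 of each other in each parent. All of these passed at adjusted p values of 0.000589 or less in limma.

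The large subunit genes closest to 0 were MRPL16, IMG1 and MRPL4. MRPL16 (uL16m), which lies near the peptidyl transferase centre, read 9.86 and 9.93 in 59A and 9.61 and 9.62 in S288C. Its difference of 0.28 ± 0.07 missed the limits (adjusted p = 0.0159), although its arrays did not overlap. IMG1 (bL19m), named for the loss of the mitochondrial genome in its mutants, read 11.44 and 11.46 in 59A but 10.94 and 11.36 in S288C. The S288C extracts of IMG1 stood further apart than the parents' means, and its difference was 0.30 ± 0.14 (adjusted p = 0.126). MRPL4 (uL29m) gave 0.37 ± 0.15 (adjusted p = 0.0748), with overlapping arrays. IMG2 (mL49) differed by 0.41 ± 0.09 (adjusted p = 0.00952), under the minimum difference. RML2 (uL2m), the core protein of the peptidyl transferase region, differed by 0.67 ± 0.11 (adjusted p = 0.00319), just short of the minimum.

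In the small subunit 12 of 24 tested genes were called higher in 59A, with a median difference of 0.69 (1.62-fold) and quartiles of 0.25 and 0.92. MRPS9 (uS9m), whose tail reaches the decoding site, differed most, at 8.87 and 8.86 in 59A and 7.62 and 7.51 in S288C. That is 2.46-fold (1.30 ± 0.07, adjusted p = 0.000115), with no overlap of arrays. RSM27 (mS33), known only from mitochondria, read 9.65 and 9.63 in 59A and 8.53 and 8.31 in S288C, a difference of 1.22 ± 0.09. MRPS28 (uS15m) read 9.00 and 8.96 against 7.91 and 7.81, a difference of 1.12 ± 0.07. In both genes every array of 59A was above every array of S288C. MRP21 (bS21m) differed by 1.01 ± 0.08, MRP17 (bS6m) by 0.98 ± 0.10 and RSM25 (mS23) by 0.96 ± 0.08, each with an adjusted p of 0.000804 or less in limma.

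The small subunit also held the subunit genes with the differences closest to 0, 2 of them negative. MRPS17 (uS17m), an RNA-binding protein of the subunit's body, read 10.97 and 10.85 in 59A and 11.16 and 10.98 in S288C, a difference of -0.16 ± 0.09 (adjusted p = 0.195). MRPS12 (uS12m), the protein at the decoding centre that carries streptomycin resistance mutations in bacteria, read 11.67 and 11.62 in 59A and 11.68 and 11.77 in S288C (-0.08 ± 0.07, adjusted p = 0.397). RSM22, a methyltransferase-like protein needed to build the small subunit, read 8.97 and 9.04 against 8.97 and 8.90 (0.07 ± 0.07, adjusted p = 0.454). In all 3 genes the arrays of the parents overlapped. RSM26, RSM18 and MRPS16 also overlapped, at differences of 0.25, 0.19 and 0.18.

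**Figure D2:**
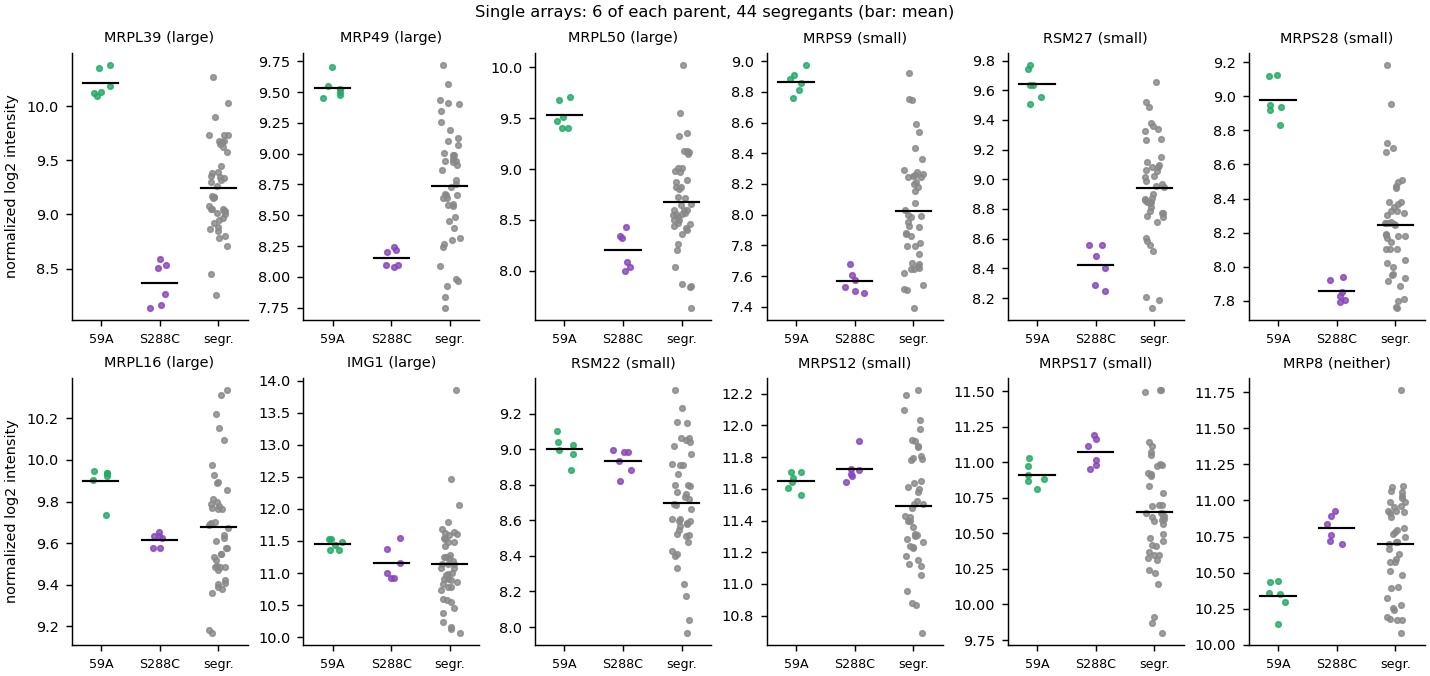
Normalized log2 intensity on single arrays (6 of each parent, 44 segregants, bars at the means) for the 3 most different genes of each subunit, the genes closest to 0, and MRP8. The parents separate fully in the upper row, and overlap in IMG1, RSM22, MRPS12 and MRPS17.

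MRP8 went the other way. It read 10.31 and 10.37 in 59A and 10.89 and 10.72 in S288C. All its 59A arrays, at 10.44 or less, were below all its S288C arrays, at 10.70 or more, and the difference was -0.47 ± 0.08 (1.38-fold, adjusted p = 0.00534), under the minimum size. MRP8 was named with the family but has no unified ribosomal name in the annotation.

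Genes with bacterial counterparts and genes found only in mitochondria were then set side by side. In the large subunit 15 of 23 tested genes with a bacterial counterpart were called, with a median difference of 0.87, and 5 of 13 mitochondria-specific genes, with a median of 0.56. In the small subunit the order of the medians was the other way. There 7 of 15 genes with a bacterial counterpart were called (median 0.68) and 5 of 8 mitochondria-specific genes (median 0.74). Of the 11 proteins of this ribosome with other names, 5 were called higher and none lower, with a median of 0.69, close to that of the members. The 4 with the smallest adjusted p were MNP1 (bL12m), at 1.03, PET123, at 0.90, FYV4, at 0.89, and NAM9, at 0.71. VAR1, the member of the ribosome that mitochondria make themselves, gave 0.11 ± 0.17 (adjusted p = 0.624). MRP51 and MRPL40, which the rule leaves out, were both called higher, at 1.07 and 0.90. MRPL36, MRPL27, MRPL17, RSM24 and MRPS8 each lacked 1 parental array and had no main test. With 1 value per extract required instead, their differences ran from 0.31 to 0.89, and MRPL17 and MRPS8 were called.

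The other parts of the mitochondrial gene expression machinery were taken from lists. Their counts stand beside 12.8% of all features called higher and 12.4% called lower, and their medians beside -0.01 over all features. Among 12 tested mitochondrial aminoacyl-tRNA synthetases, which charge tRNAs with their amino acids, 7 were called higher in 59A, led by MSW1 (tryptophan), MSF1 (phenylalanine) and MST1 (threonine) at 1.72, 2.02 and 1.01 (median of the list 0.87). Among 9 translation factors 3 were called higher: the release factor MRF1, at 1.65, and the elongation factors TUF1 and MEF1, both at 1.13 (median 0.18). Of 13 genes of ribosome assembly and rRNA modification, a list that also holds RSM22, only MAM33 was called, at 1.28 (median 0.14). Of 17 activators of single mitochondrial messengers none was called higher and ATP22, which acts on the ATP6 messenger, was called lower, at -0.88 (median 0.09). Of 7 genes of mitochondrial transcription and RNA decay the RNA polymerase RPO41 was called lower, at -0.77 (median 0.06). Lists this short with 0 or 1 call are near the share of all features and say little about the list.

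No gene on the list of 15 regulators was called higher in 59A, and 5 were called lower, beside 12.8% and 12.4% of all features. A count of 0 among 15 genes is not read as a result at that share. The median of the list was -0.49. The genes called lower were HAP1, the heme-responsive activator, at -1.75, IFH1 and SFP1, which act on cytosolic ribosomal protein genes, at -1.31 and -0.85, GRR1, of a ubiquitin ligase in glucose signalling, at -0.95, and HAP2, a subunit of the CCAAT-binding activator, at -0.90. HAP5, FHL1 and MIG1 had adjusted p values under 0.01 at -0.62, -0.49 and -0.58, under the minimum size. The other 7 ran from -0.25 to 0.24. Among them were HAP4, the inducible subunit of the CCAAT-binding activator, at 0.19 (adjusted p = 0.0494), and PUF3, which binds the messengers of mitochondrial ribosomal proteins, at -0.25 (adjusted p = 0.141). Whether any regulator's level bears on the members was not tested. For comparison of the values, 7 of 132 cytosolic ribosomal protein genes were called higher and 3 lower (median 0.20), and 8 of 34 nuclear genes of respiration and ATP synthase were called higher and 1 lower (median 0.37).

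In the segregants the members varied about as much as other transcripts. The SD over 44 segregants had a median of 0.35 over the 66 members and 0.35 over all features. Single arrays of a parent varied by a median SD of 0.10 in the members. The broad-sense heritability is the variance over segregants less that of parental arrays, as a percent of the former. Its median was 92.0% in the members and 92.4% over all features. The parental arrays repeat 2 extracts of each parent, so variation between cultures is partly counted as variation between segregants. These percentages can therefore be too high. The spread was smallest in RSM23, MRP21, MRPL25, MRPL24 and MRPL15, with SDs of 0.22, 0.25, 0.26, 0.26 and 0.26. It was largest in IMG1, MRPS8, MRPL28, MRP49 and MRPL50, at 0.67, 0.55, 0.51, 0.48 and 0.47.

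IMG1 ran from 10.07 in segregant 14a through a median of 11.11 to 13.85 in 22b. The next highest segregant was 29c, at 12.47, so that 22b stood 1.38 above all others. 10 segregants lay above every parental array of IMG1 and 17 below. MRPS8 (uS8m) ran from 7.78 in 19c through 9.10 to 10.58 in 6d. MRPL28 (mL40) ran from 7.05 in 19c through 8.27 to 9.26 in 22b, while its parents differed by only 0.42.

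Heritability was low where the arrays of a parent disagreed. MRPL19 (uL11m) gave -16.2%, with 1 S288C array at 6.78 and the other 5 between 7.79 and 7.86, and 71.0% without that array. MRPS35 gave 44.8% with and 83.7% without the same array. MRPL4 stayed low, at 27.6% and 25.3%. Without that array 35 members in place of 32 were called between the parents.

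The next question was where the segregants lay in relation to the midpoint of their parents. Genes that add up without interaction would put their mean there if all segregants had the copy number of the parents. Some carry added copies on chromosome 16, so the midpoint serves only as a reference point here. The part of the added copies in the differences was not tested. Of 52 members with values on all arrays the segregant mean was below the midpoint in 48, beside 2533 of all 5016 features. The median difference was -0.15 in the members and -0.0019 over all features. The members share the same 4 parental extracts and moved together over the segregants, so these 48 are not separate observations. In limma with 1 spread for parents and segregants none was called above or below at an adjusted p under 0.01, and none had an unadjusted p under 0.05, beside 0.0797% of all 5016 features called above and 0.0598% below. That fit gives the 4 extracts the spread of the segregants, which carry different genotypes, so its standard errors were wide, with a median of 0.17, and its count of 0 says little about where the segregants lay.

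The contrast was therefore repeated, after seeing the data, with the extracts and the segregants each given their own spread, where the median standard error was 0.07. Of the 52 members 7 (13.5%) were then called below the midpoint and none above, beside 5.82% and 6.32% of all features. At an unadjusted p under 0.05 there were 25, all below. All features were not counted at that limit, so the 25 are not read as a result. MRPS17 had a segregant mean of 10.65 and a midpoint of 10.99, a difference of -0.34 ± 0.07 (SE, adjusted p = 0.00193), with 37 of 44 segregants below. RSM22 had 8.70 and 8.97 (-0.27 ± 0.06, adjusted p = 0.00193), with 34 below. MRPL51 (mL43) had 10.22 and 10.51 (-0.29 ± 0.07, adjusted p = 0.00701), with 40 below. The others called were MRPL6 (uL6m), RSM10 (uS10m), RSM18 and MRPL1, at -0.26, -0.26, -0.30 and -0.20. These calls rest on 2 extracts a parent. None was made without either 59A extract, 2 (MRPS17 and RSM22) without extract 1 of S288C and 10 without its extract 2, while the difference of each of the 7 genes was negative every time. This contrast uses the same parental extracts as the comparison of the parents.

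Segregants beyond both parents were found in most genes, more of them on the low side. The median member had 1 segregant above all 12 parental arrays and 5 below, and the median feature had 6 of each. The counts were highest in genes whose parents differed little. In MRPS17, RSM18 and RSM22 30 of 44 segregants lay below every parental array, and in MRPS12 26 did. MRPS17 ran from 9.80 in 31b through a median of 10.62 to 11.51 in 6d, beside parental arrays between 10.82 and 11.19. RSM18 (bS18m) ran from 10.21 through 10.72 to 12.31 in 22b. In MRPL39 and MRPL32, whose parents were far apart, no segregant lay outside the range of the parental arrays. MRPL39 ran from 8.26 in 5a through 9.17 to 10.27 in 6d, and 24 of 44 segregants were below its midpoint.

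**Figure D3:**
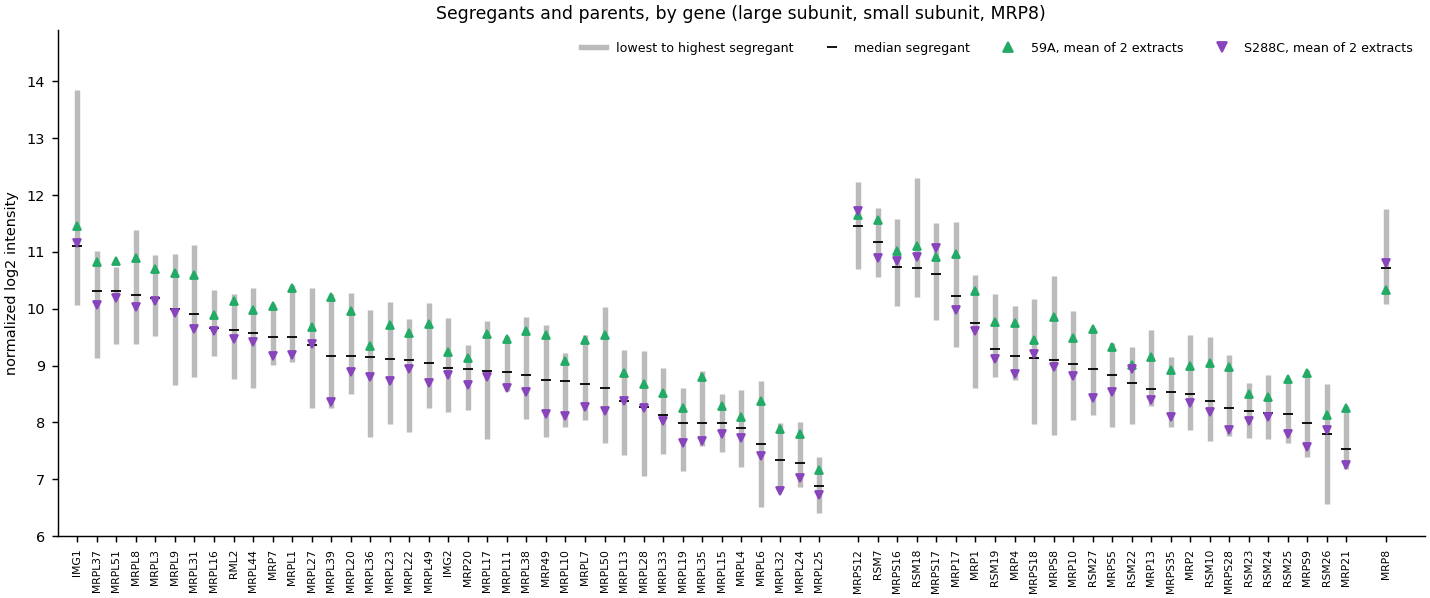
Range (lowest to highest) and median of the 44 segregants and the mean of each parent for all 66 members, in normalized log2 intensity. The medians lie between the parents in 57 genes and below both in 9, among them MRPS12, MRPS17, RSM18 and RSM22, and the top of IMG1 is segregant 22b at 13.85.

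The members moved together over the segregants. Each was set against the mean of the other subunit members, after every gene was centred on its segregant mean. Of the 65 subunit genes 61 had a Pearson r above 0.5 and 24 above 0.8 over the 44 segregants, which share 7 slides and 26 asci. The closest were MRPL49 (bL21m), at 0.96, MRPL8 (bL17m), at 0.91, MRPL38 (uL14m), at 0.89, and MRPL50 and MRP17, both at 0.88. Values less the slide mean gave 0.97, 0.93, 0.90, 0.89 and 0.89 in the same order. The pair most alike was MRPL49 and MRPL38, at 0.907.

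5 genes stood off the common pattern. MRP8 had an r of -0.09 with the 65 subunit genes. MRPL32 (bL32m), whose precursor is processed by the m-AAA protease of the inner membrane, had 0.28. RSM22 had 0.35, MRPL10 (uL15m) 0.41 and MRPS35 (mS45) 0.42. MRPL32 and RSM22 were the least alike of all pairs, at -0.57. MRPL32 was one of the most different genes between the parents (1.08) and yet followed the others little, and its segregants ran from 6.81 in 22b through 7.35 to 8.00 in 7b.

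Large and small subunit genes were no more alike within a subunit than between them. The median r was 0.556 over 741 pairs of large subunit genes, 0.555 over 325 pairs of small subunit genes and 0.553 over 1014 pairs across the subunits. Within slides the values were 0.583, 0.582 and 0.579. The median over all pairs of features was 0.0016. Pairs of cytosolic ribosomal protein genes had 0.790 and pairs of nuclear respiration genes 0.694. Once the common mean was taken off each segregant, the median r within and across subunits of the mitochondrial ribosome was -0.03, 0.01 and -0.02. Taking off the mean of the same 65 genes pulls these values towards 0 by arithmetic. They therefore do not show whether anything else is shared.

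**Figure D4:**
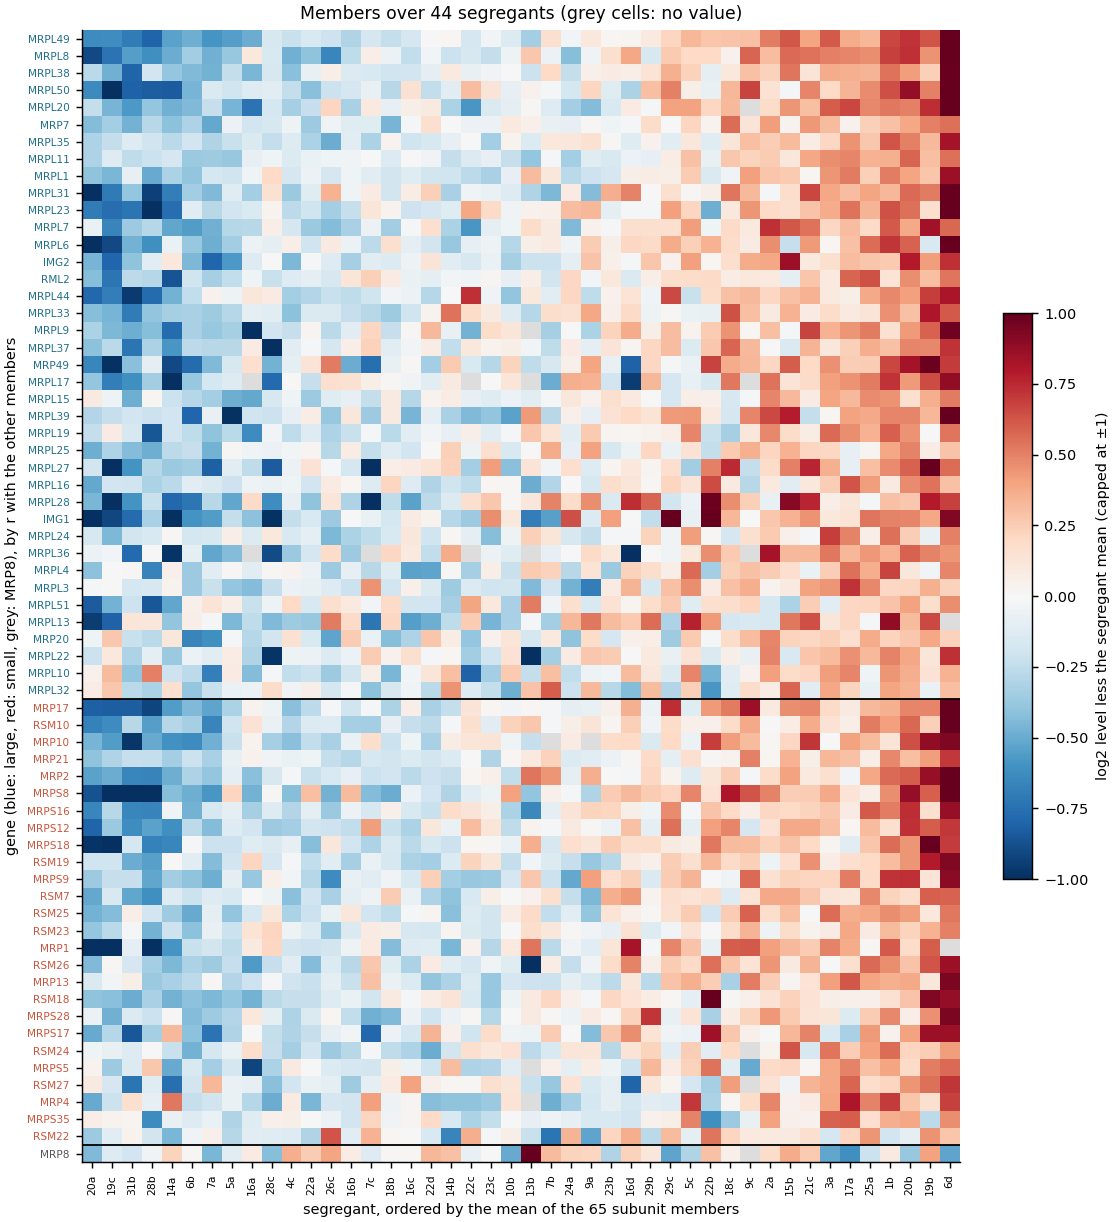
Log2 level less the segregant mean for 66 members (rows, ordered by r with the other members within each subunit) in 44 segregants (columns, ordered by the mean of the 65 subunit genes; colour capped at 1 in size, grey where no value). Low segregants such as 20a and 19c are blue and 6d is red over nearly all rows of both subunits, and MRP8 in the last row does not follow.

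The subunit means put a value on each array. Over the segregants the large subunit mean ran from -0.44 in 19c to 0.70 in 6d, with an SD of 0.27, and the small subunit mean from -0.45 in 28b to 0.80 in 6d, with an SD of 0.26. Arrays of 1 parent varied by SDs of 0.05 in both. The 2 means had an r of 0.969 and a rho of 0.953 over 44 segregants, an r of 0.963 without 1b and 6d, the farthest from the median of the large subunit mean, and 0.969 within slides. Slide means of the segregants lay between -0.09 and 0.09 for all 65 genes.

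For all 65 genes together the lowest segregants were 20a, 19c, 31b, 28b and 14a, at -0.43, -0.42, -0.40, -0.40 and -0.38. The highest were 6d, 19b, 20b and 1b, at 0.74, 0.44, 0.44 and 0.43. The 59A arrays lay between 0.48 and 0.56 and the S288C arrays between -0.27 and -0.16. 36 segregants were within the range of the parental arrays, 1 (6d) above it and 7 below. Spores of 1 ascus could lie at both ends, as 20a and 20b did, and 19b and 19c. In ascus 16, all 4 spores of which were measured, the values were -0.19, -0.13, -0.11 and 0.07, and in ascus 22, also complete, they were -0.17, 0.17, -0.08 and -0.10 for spores a to d.

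The balance of the subunits differed between the parents by little, but by more than the extracts did. The large less the small subunit mean was 0.042 and 0.039 in the 2 extracts of 59A and -0.112 and -0.109 in those of S288C, so the large subunit genes were 0.15 further apart between the parents than the small subunit genes. All 6 arrays of 59A, at 0.003 or more, were above all 6 of S288C, at -0.094 or less. With only the members that had values on all 56 arrays the parents' difference in balance was 0.23. The order of the median differences was less firm than that of the means: 0.77 for the large and 0.69 for the small subunit over all extracts, but 0.68 and 0.72 within slide 1, 0.75 and 0.78 within slide 5, and 0.71 and 0.73 with slide as a block. No test was made, since the members of a subunit were averaged. Over segregants the balance ran from -0.14 in 16d to 0.12 in 9a with an SD of 0.068, well under the spread of either mean, while arrays of 1 parent varied by an SD of 0.020. 7 segregants were above all 59A arrays and 1 below all S288C arrays.

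**Figure D5:**
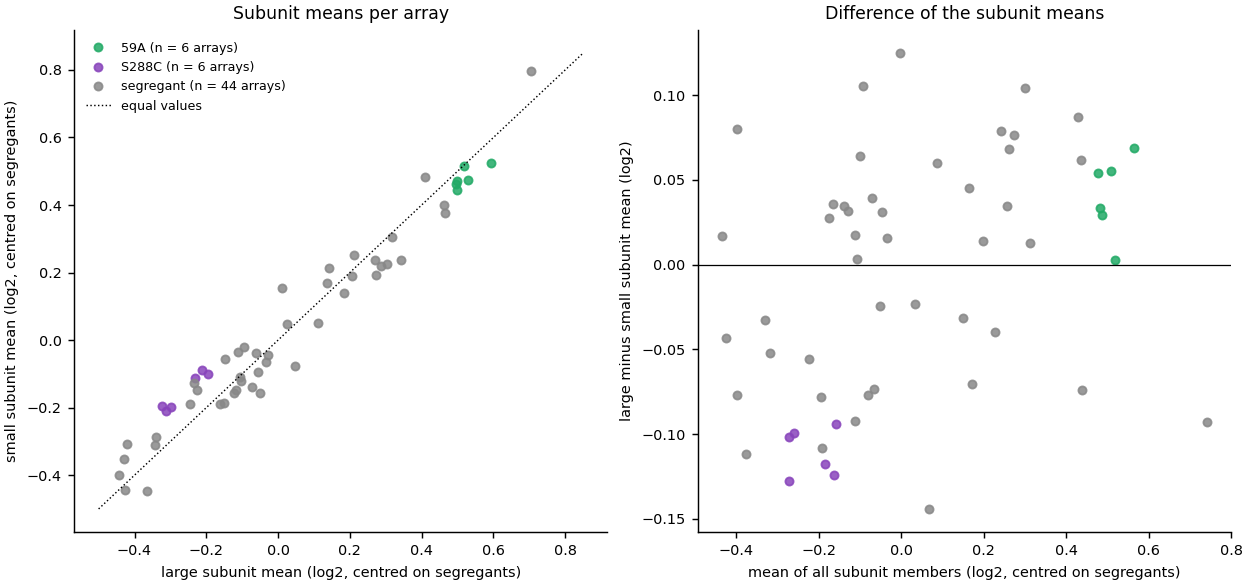
Left, mean of the small against the large subunit genes on each array (log2, each gene centred on its segregant mean); right, their difference against the mean of all 65 genes. Segregants follow the line of equal values from about -0.45 to 0.8, 59A sits at 0.003 to 0.069 and S288C at -0.127 to -0.094 in the difference.

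Members on chromosome 11 moved apart from the rest in segregant 26c. In that segregant the mean of the 7 subunit genes on chromosome 11 was 0.33 and that of the other subunit genes -0.19. RSM22, MRPL13, MRP49, MRPL31, MRPL20 and MRPL38 were above their segregant means there, by 0.63, 0.52, 0.52, 0.35, 0.22 and 0.06, and MRP17 was at -0.01. MRP8, also on chromosome 11, was at 0.39. The gap of 0.52 was the widest for any segregant and any chromosome with at least 4 members. Without 26c the r of RSM22 with the other members was 0.40 in place of 0.35, and that of MRP49 0.77 in place of 0.75. The gap of 0.57 on chromosome 3 in 22b was wider but rested on 3 genes, IMG1 among them.

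Genes outside the family were ranked by their r with the mean of the 65 subunit genes over the segregants. Of 5115 named genes 212 had an r above 0.5, 27 of them above 0.8, and 189 had an r under -0.5. The 10 closest were COX17, a copper chaperone for cytochrome c oxidase, at 0.91, MAM33 and CMC1, both at 0.90, PET123, OMS1 and MDM35, all at 0.88, COA3, at 0.86, and AIM36, MNP1 and TOM6, all at 0.85. PET123 and MNP1 are themselves proteins of this ribosome. CMC1 and COA3 serve the assembly of cytochrome c oxidase, MDM35 acts in the intermembrane space and TOM6 belongs to the import pore of the outer membrane. Within slides these 10 had r values between 0.85 and 0.93, and between 0.81 and 0.89 once the 2 most extreme segregants were dropped. In the parents 8 of the 10 were called higher in 59A, beside 12.8% of all features and 52.5% of the members they follow, COX17 most, at 1.86. COA3 and TOM6 were not called, at 0.65 and 0.66.

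The 5 genes that ran most in the opposite direction were JHD2, a histone demethylase, at -0.68, POL5, needed for rRNA synthesis, at -0.68, SET2, a histone methyltransferase, at -0.67, THS1, the cytosolic threonyl-tRNA synthetase, at -0.65, and ELP2, of the Elongator complex, at -0.65. None of them was called between the parents. The mean of 135 cytosolic ribosomal protein genes also ran against the members, with an r of -0.54 and a rho of -0.56 over 44 segregants, -0.55 without the 2 farthest segregants and -0.61 within slides. The mean of 35 nuclear respiration genes had an r of 0.36 but a rho of 0.13. All these values come from the same normalized arrays, in which a rise of some transcripts lowers the rank of others, and the part of this in the negative values was not tested.

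On the lists, 10 of the 11 other proteins of this ribosome had an r above 0.5, with VAR1 the exception at 0.47 and a median of 0.79. RTC6 (bL36m) followed the members over the segregants, at 0.73, while its level was lower in 59A than in S288C, by -0.41 (adjusted p = 0.00478 in limma, under the minimum size). The median r was 0.59 for translation factors, with TUF1 at 0.84, and 0.44 for aminoacyl-tRNA synthetases, where MSE1 had 0.83 and MSW1 -0.07. It was 0.33 for assembly genes, 0.31 for transcription and RNA decay, and 0.20 for activators of single messengers, where CBP6 had 0.84 and PET122 -0.50. MRP51 and MRPL40 had 0.31 and 0.39. Both lie on a chromosome arm, part of which the paper reports as duplicated in some segregants. The part of added copies in these r values was not tested, so they are not compared with those of the other proteins of this ribosome. Regulators had a median of 0.04. GRR1 was the only regulator above 0.5, at 0.56, and HAP1 had -0.29, HAP4 0.40 and PUF3 0.16.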

How the data were processed

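The deposited values are log2 spot medians of one-colour Agilent arrays, which the authors read with GenePix and quantile normalized together with limma in R 2.13.1. The methods count fewer arrays than the 56 deposited. Intensities were kept on this log2 scale; their number, not a read depth, limits the precision. Gene names came from the platform annotation and RefSeq; the array's genome build is not given in the sources used here, so no coordinates are printed. Subunits and unified names were assigned from a hand-written list checked against RefSeq synonyms.

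Technical arrays were averaged per extract, and 2 extracts a parent were compared in limma 3.58.1 (R 4.3.3) with Benjamini-Hochberg adjustment over 5969 features; p-values measure only the spread between these extracts. Segregants were contrasted with the parental midpoint over 5016 features, with 1 spread for all groups and, added after seeing the data, with limma's moderated variances of extracts and segregants fitted apart and combined (Satterthwaite degrees of freedom). These fits were tested on simulated data. Subunit scores and correlations (Python 3.11.15, pandas 2.3.3) carry no test. Members and lists were chosen with earlier results of these data known. Named genes are, per subunit, the 6 called members with the largest difference, the 3 closest to 0 and any against the majority; the 5 with the largest and smallest spread; the 5 with the highest and lowest r; up to 10 called against the midpoint, by adjusted p; up to 3 called genes per list, all regulators (those not called partly as a range) and 4 other proteins of this ribosome, by adjusted p; and the 10 genes that followed the members most closely and the 5 most opposite. IMG1, IMG2, RML2 and MRP8 were always named. Other genes named for a value (MRPL28, VAR1, SAG1, RTC6, CBP6, MSE1, PET122 and the genes on chromosome 11) were chosen after their values were seen, as was the look at 26c. Alternatives were the unit of replication, slide, replicate number, dim features, centring, missing values, call limits, relatedness, Spearman rho and leaving out each extract.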

Additional observations from a re-analysis of the deposited data

Results flagged for a closer look

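Over the 6 arrays of a parent, the highest or lowest array was set apart by Dixon's ratio in 14 of 133 groups of values for members and subunit means, where chance gives about 1 in 20. Most of the 14 fell on a pair of arrays, with 5 on each. S288C extract 2 array 2 was lowest for MRPL19 at 6.778 (others 7.79 to 7.86), MRPS35 at 7.602, MRPL24 at 6.789 and MRPL51 at 9.872, and highest for MRPS12 at 11.9. 59A extract 1 array 2 was lowest for MRPL16 at 9.736, and highest for MRPL32 at 8.014, MRPL25 at 7.355, MRPL31 at 10.8 and the large subunit mean at 0.593. 59A extract 2 array 3 was highest for MRPL11 at 9.628, and lowest for MRPS35 at 8.661 and MRPL19 at 7.809. 59A extract 1 array 3 was highest for MRP49 at 9.706. Without S288C extract 2 array 2 the parents' comparison called 35 members higher, and without 59A extract 1 array 2 it called 31; both were tried after seeing the data.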

How the results depend on the processing

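The count of 32 members called higher in 59A was 31 with slide as a block and 32 with the replicate block, which pairs extracts by number. Over 5969 features the deviations of extract 1 of 59A and extract 1 of S288C from their parent's mean correlated at 0.437. Extracts of the same number may thus share an effect that the main fit leaves out. The count was 34 with at least 1 value per extract. At an adjusted p under 0.05 and any size of difference it was 51, with MRP8 lower (all features were not counted at this limit). With MRP51 and MRPL40 it was 34. 28 members were called in every tested alternative; MRPL37, MRP1, MRPS35 and MRPL9 lost the call in at least 1, and 8 gained it. MRPS16 changed sign without S288C replicate 2, at -0.000537, its values over left-out extracts being at most 0.37. The large subunit median of 0.767 ran from 0.737 to 0.864 leaving out extracts. It was above the small subunit's 0.694 over all extracts but below it within slide 1 (0.681 and 0.721), within slide 5 (0.754 and 0.780) and with slide as a block (0.71 and 0.73). Against the midpoint no member was called where parents and segregants shared 1 spread, 7 were with their own spread (chosen after seeing the data), and 0 to 10 then leaving out each extract. With 1 mean per ascus the small subunit's median SD was 0.257 and its heritability 84.1%. With members complete on all 56 arrays (chosen after seeing the data) the parents' difference in subunit balance was 0.230. The causes were not tested. The other 127 values of summaries stayed within their limits: the SD or quartile range of the replicates or genes behind them, 0.05 for the r between subunit means, and 1.5 times for a count.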
